A study of Homo sapiens with 6 samples.

Results

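Epithelial-mesenchymal transition (EMT) is the passage of epithelial cells, which are joined to each other by E-cadherin, to a motile mesenchymal state. It is driven by zinc-finger factors of the SNAI and ZEB families and by the basic helix-loop-helix TWIST factors, which bind E-box sequences and shut down CDH1, the E-cadherin gene, while CDH2 (N-cadherin), VIM (vimentin) and FN1 (fibronectin) mark the mesenchymal end. In bladder cancer, loss of E-cadherin is a known feature of invasive cells. The 10 genes described here are the 6 transcription factor genes SNAI1, SNAI2, TWIST1, TWIST2, ZEB1 and ZEB2 and the 4 state markers CDH1, CDH2, VIM and FN1, picked by name from the 33542 genes of the deposited count table.

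They were measured by RNA sequencing in T24, an established human line from a bladder carcinoma, after lipid-mediated transfection with small interfering RNA. The 3 siTRAIP libraries received RNA against TRAIP, an E3 ubiquitin ligase with a RING domain and a role in replication stress, and the 3 siNC libraries received control RNA. The siRNA sequences and the time of harvest are not stated in the labels, and all libraries come from this 1 line. All 3 siTRAIP libraries carry the label siTR2, and no other TRAIP siRNA label is present. Effects of TRAIP loss and other effects of this reagent therefore cannot be told apart. By its title, the study links TRAIP to ubiquitination of the transcription factor MYC. All 10 genes were found, 6 of them (SNAI2, ZEB1, ZEB2, CDH2, VIM and FN1) passed the filter on low counts and were tested, and the other 4 (SNAI1, TWIST1, TWIST2 and CDH1) had almost no reads.

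Total gene counts were 39111793 to 70439496 in the siTRAIP libraries and 54818483 to 58066330 in the siNC libraries. TRAIP mRNA stood at 12.5, 14.7 and 11.6 CPM (counts scaled to library size by trimmed means) in the siTRAIP libraries and at 26.6, 28.3 and 28.4 CPM in the siNC libraries, a log2 fold change of -1.11 (standard error 0.07, edgeR adjusted p = 6.74e-10). siTRAIP replicate 3 stood apart: a chi-square comparison of gene counts, divided by its degrees of freedom, gave 15.85 and 16.42 against its 2 fellow replicates, and 3.20 to 7.315 for the other pairs within a group. This measure can grow with depth, and siTRAIP replicate 3 was the deepest library (70439496 counts). The part of depth in these values was not tested. siTRAIP replicate 3 alone held 34 counts of CHI3L1, 33 of COL2A1, 22 of S100A9, 15 of COL23A1 and 14 of MIR205HG, all at 0 in the other 5 libraries. It also held 294 counts of the collagen gene COL1A1, against 39 and 42 in siTRAIP replicates 1 and 2 and 60, 60 and 66 in the siNC libraries. Of the 7 fibroblast markers in the table, the summed level was 1.11 to 5.41 CPM in the siTRAIP libraries and 1.30 to 1.46 CPM in the siNC libraries, and the part of this RNA in the results was not tested. Endothelial and leukocyte markers were near 0 in all libraries: the 5 endothelial markers summed to 6 to 11 counts in siTRAIP and 4 to 6 in siNC, and the 4 leukocyte markers to 2 to 8 and 3 to 8. Of the 13 urothelial markers in the table, KRT7 (276 ± 11.7 RPKM in siTRAIP, 326 ± 4.28 in siNC, SD, n = 3 each), KRT8 and KRT18 were abundant. KRT19 (8.67 RPKM in siTRAIP, 9.03 in siNC) and PPARG (4.58 and 4.63 RPKM) were lower but above 1 RPKM. Mean levels of TP63, KRT5, GATA3, FOXA1 and the uroplakins stayed below 1 RPKM. KRT7, a simple epithelial keratin, fell by 0.18 on the log2 scale (standard error 0.04, edgeR adjusted p = 0.00375), a call kept in all 16 alternatives. Its counts are uncertain, since the opposite-strand gene RP3-416H24.1 shares 6.89% of its exonic bases. RP3-416H24.1 stood at 164 RPKM in siTRAIP and 194 RPKM in siNC (log2 fold change -0.18, edgeR adjusted p = 0.00745). The other 7 tested markers of that list were not called.

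The miR-200 family of microRNAs is a well-known brake on both ZEB1 and ZEB2, and it pairs with their 3′ untranslated regions through its seed (bases 2 to 8). The 5 mature sequences are shown from RefSeq (GRCh38.p14) with the seed in capitals, first the pair that shares AACACUG and then the 3 that share AAUACUG; the microRNAs themselves were not measured here.
miR-200a-3p: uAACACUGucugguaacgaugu
miR-141-3p: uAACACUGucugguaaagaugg
miR-200b-3p: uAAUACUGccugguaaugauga
miR-200c-3p: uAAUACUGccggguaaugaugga
miR-429: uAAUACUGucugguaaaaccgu

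The 3′ untranslated regions of all 10 genes were searched for CAGTATT and CAGTGTT, the complements of the 2 seeds, on the transcript strand of the GENCODE v29 transcript with the longest coding sequence. ZEB1 held 6 copies of CAGTATT and 3 of CAGTGTT, and ZEB2 held 5 and 4. Of 18213 untranslated regions searched, 14.6% held CAGTATT and 16.4% held CAGTGTT at all. At least 6 copies of CAGTATT were held by 2 regions and at least 5 by 6 regions. At least 3 copies of CAGTGTT were held by 159 regions and at least 4 by 45. The regions of ZEB1 and ZEB2 were 2549 and 5370 bases long, and those of the other members 321 (VIM) to 2042 (CDH1). These numbers were not matched for length. SNAI2 had 1 copy and FN1 2 copies of CAGTATT, and neither word was found in the remaining members. The first copies, with the word in capitals, start at base 369 and base 782 of the ZEB1 region and at base 392 and base 208 of the ZEB2 region. A match is a description of the letters, not a site shown to be used.
ZEB1, CAGTATT: attgttttatcttatCAGTATTatca
ZEB1, CAGTGTT: caaaatcatcagaatCAGTGTTtgtg
ZEB2, CAGTATT: cgcactaccatacatCAGTATTttta
ZEB2, CAGTGTT: tgcaaaaattttgtaCAGTGTTaagg

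The E-box that SNAI and ZEB proteins bind reads CAGGTG on one strand and CACCTG on the other. RefSeq promoter windows (250 bases before to 50 after a start, GRCh38.p14) were matched for 6 of the 10 genes (TWIST2, ZEB1, ZEB2, CDH2, VIM and FN1), 13 windows in all, and 2 of these, both among the 7 starts of ZEB1, held the E-box, against 20.6% of 35116 windows. The ZEB1 window with the most matches, chr10:31318966-31319265 on the plus strand, held 3 and is shown with the E-boxes in capitals. At least 3 were held by 0.635% of all windows. This window was picked as the highest of the 13, so that share does not say how rare such a pick is. Windows of TWIST2, ZEB2, CDH2, VIM and FN1 held none.
ZEB1 promoter: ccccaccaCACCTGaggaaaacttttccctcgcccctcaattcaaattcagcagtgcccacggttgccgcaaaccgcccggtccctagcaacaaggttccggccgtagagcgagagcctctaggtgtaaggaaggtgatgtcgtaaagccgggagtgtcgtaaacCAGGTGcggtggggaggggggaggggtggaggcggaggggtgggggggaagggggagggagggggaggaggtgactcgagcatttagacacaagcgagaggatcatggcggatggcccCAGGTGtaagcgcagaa

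T24 cells expressed 1 SNAI factor and both ZEB factors and had almost no reads from SNAI1 or either TWIST gene, in siTRAIP and siNC alike. SNAI1 (chromosome 20, 49982999 to 49988886), the Snail repressor, had counts of 2, 0 and 0 in the siTRAIP libraries and 0, 2 and 2 in the siNC libraries. TWIST1 (chromosome 7, 19020991 to 19117672) had 0, 0 and 2 in siTRAIP and 2, 2 and 0 in siNC. TWIST2 (chromosome 2, 238848032 to 238910543) had 0, 0 and 2 in siTRAIP and 0 in each siNC library. All of these lie under the 3 counts that a count of 0 allows, which for SNAI1 is 0.0253 to 0.0455 RPKM (the count per kilobase of exon, scaled to the total) per library, so no fold change is given. Such limits cover counting error only and take each count as 1 independent read. Low counts were mostly even, so read pairs may be counted as 2 and the limits may be too low. Across groups the 4 untested genes, CDH1 included, summed to 13 counts in siTRAIP and 10 in siNC.

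SNAI2 (chromosome 8, 48917690 to 48921740), the Slug repressor, was the SNAI factor present. It stood at 79.8, 81.4 and 79.0 CPM in the siTRAIP libraries and at 76.1, 73.7 and 73.7 CPM in the siNC libraries. The groups did not overlap on this scale, as was the case for 29.1% of the 18685 tested genes. The log2 fold change of 0.10 (standard error 0.04), a fold of 1.07 with a 95% interval of 1.01 to 1.14, missed the threshold of 0.05 (edgeR, adjusted p = 0.125; unadjusted p = 0.0238). Scaled by total counts alone, as RPKM is, SNAI2 overlapped: 33.9, 35.2 and 33.9 RPKM in siTRAIP against 34.1, 32.6 and 33.2 RPKM in siNC, with a log2 fold change of 0.04 in edgeR with library sizes only (adjusted p = 0.573).

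ZEB1 (chromosome 10, 31318495 to 31529814), a zinc-finger and homeodomain repressor of epithelial genes, had 193.3, 193.3 and 185.2 CPM in siTRAIP and 186.2, 184.3 and 179.0 CPM in siNC. The lowest siTRAIP library lay inside the siNC range, and the log2 fold change was 0.06 (standard error 0.04, edgeR adjusted p = 0.436; fold 1.04, 95% interval 0.980 to 1.10). Its paralogue ZEB2 (chromosome 2, 144384081 to 144524583) had 82.3, 83.3 and 85.6 CPM in siTRAIP and 84.3, 84.4 and 78.1 CPM in siNC, with overlapping groups, a log2 fold change of 0.03 (standard error 0.04, edgeR adjusted p = 0.791) and a fold interval of 0.954 to 1.09. With library sizes only both values changed sign, to -0.0030 for ZEB1 and -0.03 for ZEB2. The ratio of ZEB1 to ZEB2, which no scaling between libraries touches, was 6.24 ± 0.273 in siTRAIP and 6.11 ± 0.153 in siNC (ratio of RPKM, SD, n = 3 each), and its ranges overlapped. Its size depends on the exon lengths used. By the length of the longest-coding GENCODE transcript, ZEB1 and ZEB2 stood at 31.1 and 8.55 RPKM in siTRAIP. In siNC they stood at 31.2 and 8.76 RPKM.

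**Figure D1:**
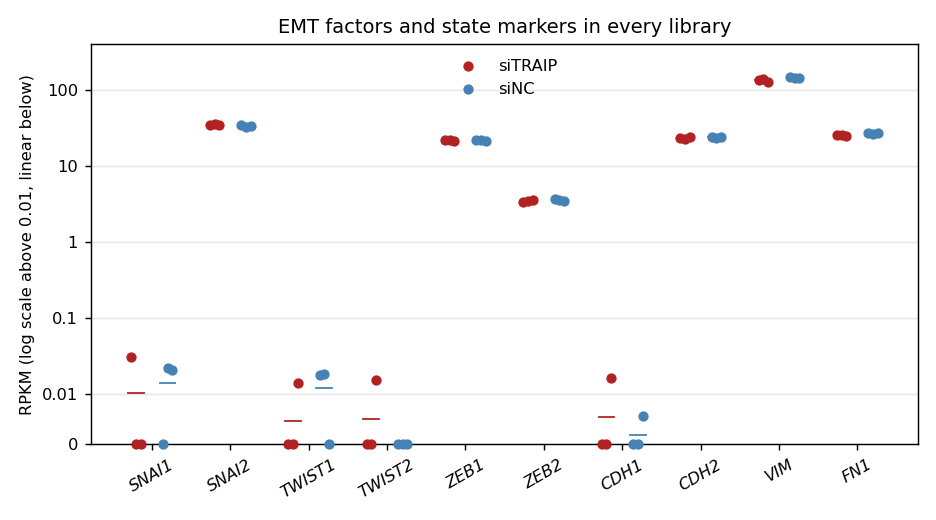
RPKM of each of the 10 genes in each of the 6 libraries (points; siTRAIP red, siNC blue; short lines are group means; the axis is logarithmic above 0.01 RPKM and linear below). SNAI2, ZEB1, ZEB2, CDH2, VIM and FN1 lie above 3 RPKM in every library, and SNAI1, TWIST1, TWIST2 and CDH1 lie at or below 0.0303 RPKM.

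The state markers showed the mesenchymal arrangement of cadherins in both groups. CDH1 (chromosome 16, 68737225 to 68835548), E-cadherin, had counts of 0, 0 and 7 in the siTRAIP libraries and 0, 0 and 2 in the siNC libraries. The 7 counts, 0.0161 RPKM, came from siTRAIP replicate 3, the deepest library and the one that held collagen and S100A9 counts as above; their source was not tested. CDH2 (chromosome 18, 27950966 to 28177446), N-cadherin, had 119.6, 113.4 and 119.1 CPM in siTRAIP and 114.7, 114.4 and 114.5 CPM in siNC. The siTRAIP libraries lay on both sides of the siNC values, and the log2 fold change was 0.04 (standard error 0.04, edgeR adjusted p = 0.676; fold 1.02, 95% interval 0.965 to 1.09), or -0.03 with library sizes only. Summed over libraries, CDH2 had 17913 counts in siTRAIP and 19750 in siNC, beside 7 and 2 counts of CDH1. No plain ratio of the cadherins is given, because the 7 counts come from 1 library and low counts were mostly even. A log2 difference with a value added to both genes is in the closing section.

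VIM (chromosome 10, 17228259 to 17237593), the intermediate filament of mesenchymal cells, was the most abundant of the 10 genes. It had 717, 729 and 671 CPM in siTRAIP and 734, 733 and 709 CPM in siNC, with overlapping groups and a log2 fold change of -0.04 (standard error 0.04, edgeR adjusted p = 0.625; fold 0.972, 95% interval 0.915 to 1.03). siTRAIP replicate 3 was the lowest library, and without it the log2 fold change was -0.0059. As RPKM, all siTRAIP libraries (134.9, 139.4 and 127.3) lay below all siNC libraries (145.7, 143.5 and 141.4), which held for 32.2% of tested genes on that scale in either direction; limma on log2(RPKM + 0.1) gave -0.10 (adjusted p = 0.176). Opposite-strand genes VIM-AS1 and RP11-124N14.3 share 12.4% and 12% of its exonic bases and were themselves well covered (78.2 and 562 RPKM in siTRAIP, 83.1 and 611 RPKM in siNC), so the VIM level is uncertain. VIM-AS1 had a log2 fold change of -0.03 (edgeR adjusted p = 0.825).

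FN1 (chromosome 2, 215360440 to 215436172), the matrix glycoprotein fibronectin, had 455.0, 444.8 and 441.5 CPM in siTRAIP and 454.8, 455.3 and 449.4 CPM in siNC. The groups overlapped, and the log2 fold change was -0.02 (standard error 0.04, edgeR adjusted p = 0.824; fold 0.986, 95% interval 0.932 to 1.04). As RPKM the groups separated, with 25.51, 25.35 and 24.96 in siTRAIP against 26.9, 26.6 and 26.7 in siNC, and limma on log2(RPKM + 0.1) gave -0.08 (adjusted p = 0.171). VIM and FN1 were the 2 tested members that separated on the RPKM scale, and SNAI2 the 1 that separated on the trimmed-mean scale. The scales differ by a common shift: the median log2 fold change of all tested genes was -0.0017 with trimmed-mean factors and -0.06 with library sizes only.

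Of the 6 tested genes, none was called by edgeR at an adjusted p of 0.05, against 12.8% of all 18685 tested genes (7.47% higher and 5.34% lower in siTRAIP). SNAI2 alone had an unadjusted p below 0.05, against 24.8% of all tested genes. DESeq2 and limma on both RPKM scales also called 0. The log2 fold changes had a median of 0.03, 4 above and 2 below 0, and the 95% intervals of the folds ran from 0.915 to 1.14 over the 6 genes. A missed threshold does not show that levels were equal; these intervals give the size of change that the data leave room for. The labels do not say whether replicates were grown separately, so p-values speak only of the spread among these 6 libraries, which could be technical. In bulk RNA, fewer cells with a transcript and less transcript per cell cannot be told apart.

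**Figure D2:**
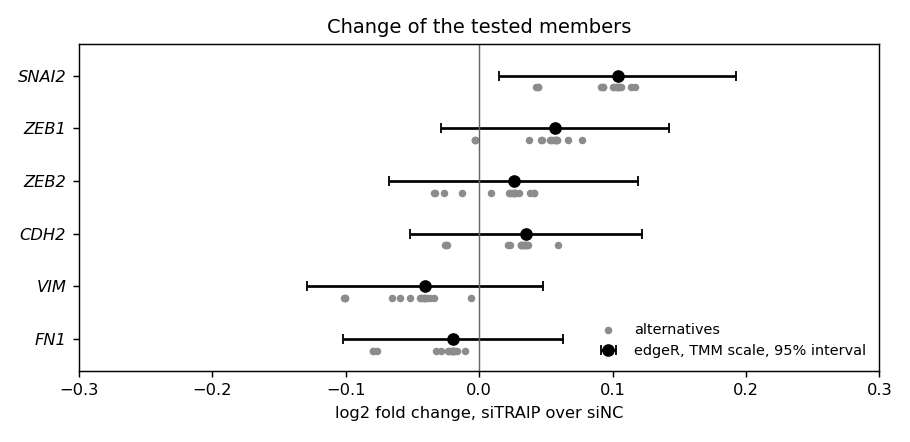
Log2 fold change of siTRAIP over siNC for the 6 tested genes. Black points and bars are the edgeR estimate on the trimmed-mean scale with its 95% interval, and grey points are the 16 alternatives; the black bars lie between -0.13 and 0.19, and only the SNAI2 bar does not cross 0.

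Levels between genes were compared per exon length. In siTRAIP the order of mean RPKM was VIM (133.9 ± 6.12), SNAI2 (34.3 ± 0.745), FN1 (25.3 ± 0.285), CDH2 (23.2 ± 0.525), ZEB1 (21.6 ± 0.559) and ZEB2 (3.46 ± 0.0815), and in siNC VIM (143.5 ± 2.15), SNAI2 (33.3 ± 0.745), FN1 (26.7 ± 0.159), CDH2 (23.6 ± 0.232), ZEB1 (21.6 ± 0.383) and ZEB2 (3.54 ± 0.134; SD, n = 3 each). No 2 neighbours in that order overlapped within a group. Among all 33542 genes, mean RPKM placed VIM at rank 333, SNAI2 at 1394, FN1 at 1778, CDH2 at 1964, ZEB1 at 2114 and ZEB2 at 7766. The order depends on the length used. The table's summed exon length of ZEB2, 23707 bases, is 2.47 times that of its longest-coding GENCODE transcript, and the ratio is 2.42 for VIM, 1.94 for FN1, 1.44 for ZEB1, 1.14 for CDH2 and 0.940 for SNAI2. By transcript length, FN1 (49.1 in siTRAIP, 51.9 in siNC) stood above SNAI2 (32.3 and 31.3), ZEB1 (31.1 and 31.2) above CDH2 (26.5 and 27.0), and ZEB2 (8.55 and 8.76) last. On that scale SNAI2 and ZEB1 overlapped in siNC, while in siTRAIP the lowest SNAI2 and the highest ZEB1 library both stood at 31.8 after rounding, without overlap.

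Genes of the epithelial side were mostly low. Of 51 listed junction, polarity and epithelial factor genes in the table, 19 in siTRAIP and 17 in siNC reached a mean of 1 RPKM, with medians of 0.523 and 0.436 RPKM. Named for their levels after these were seen, the ZEB1-repressed splicing factor ESRP1 stood at 0.126 ± 0.0407 RPKM in siTRAIP and 0.0993 ± 0.031 RPKM in siNC, the adhesion gene EPCAM at 0.646 ± 0.143 and 0.525 ± 0.0962 RPKM, and OVOL2, an epithelial repressor of ZEB1, at 5.72 ± 0.267 and 6.51 ± 0.51 RPKM (SD, n = 3 each); none of these 3 was called. Of 38 tested genes 2 rose and 1 fell, beside 12.8% called among all tested genes, with a median log2 fold change of 0.04. The balance depends on the scaling: 1 rose and 4 fell with library sizes only, and 1 rose and 3 fell with limma on both RPKM scales. DSP, the desmosome linker desmoplakin, rose to 333 ± 16.7 CPM in siTRAIP, against 268 ± 9.03 CPM in siNC (log2 fold change 0.31, standard error 0.04, edgeR adjusted p = 3.18e-05). CLDN1, a tight junction claudin, fell to 63.2 ± 2.67 CPM in siTRAIP, against 78.8 ± 1.56 CPM in siNC (-0.32, standard error 0.05, edgeR adjusted p = 3.33e-05). EVPL, the envoplakin gene, rose by 0.15 (edgeR adjusted p = 0.0325), a call lost in 9 of 16 alternatives, siTRAIP replicate 3 left out among them.

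The mesenchymal list was expressed more widely. Of its 49 genes in the table, 34 reached 1 RPKM in both groups, with medians of 2.99 RPKM in siTRAIP and 2.73 RPKM in siNC. Of 41 tested, 2 rose and 4 fell, 6 calls in all and a share near the 12.8% of all tested genes, with a median log2 fold change of -0.03, against -0.0017 for all tested genes. FSTL1, a secreted follistatin-like glycoprotein gene, fell to 186 ± 2.98 CPM in siTRAIP, against 224 ± 1.35 CPM in siNC (-0.26, standard error 0.04, edgeR adjusted p = 6.47e-05), and DAB2, an endocytic adaptor gene, fell by 0.27 (standard error 0.07, edgeR adjusted p = 0.0137), lost without siNC replicate 1 (adjusted p = 0.0623). VCAN, the versican proteoglycan gene, rose by 0.20 (standard error 0.05, edgeR adjusted p = 0.0169). With library sizes only, 0 rose and 7 fell, and with 1 library left out 0 to 4 rose and 1 to 5 fell (4 and 5 without siTRAIP replicate 3, 1 fell without siNC replicate 1); the call on VCAN was lost in 6 of 16 alternatives.

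**Figure D3:**
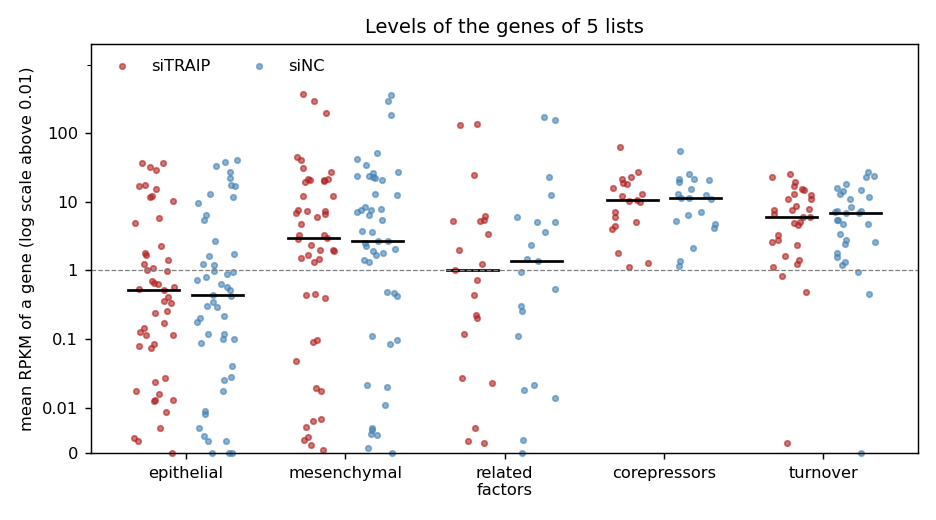
Mean RPKM of each gene of 5 lists in siTRAIP (red) and siNC (blue); the axis is logarithmic above 0.01 and linear below, black bars are medians and the dashed line marks 1 RPKM. The epithelial list has medians of 0.523 and 0.436 RPKM, the mesenchymal list 2.99 and 2.73 RPKM.

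Among other factors tied to EMT, 2 of 17 tested genes rose, 5 fell and 10 were not called, and the median log2 fold change was -0.21. Among all tested genes 7.47% were higher and 5.34% lower. The number that fell was 3 without siTRAIP replicate 2, without siNC replicate 3 and with limma on both RPKM scales. The number that rose was 1 with library sizes only, on both RPKM scales, without robust fitting, and without siTRAIP replicate 3 or any single siNC replicate. HMGA2, an architectural chromatin protein that can induce SNAI1 and TWIST1, fell to 81.9 ± 1.72 CPM in siTRAIP, against 188 ± 6.21 CPM in siNC (SD, n = 3 each; log2 fold change -1.20, standard error 0.04, edgeR adjusted p = 5.33e-15). Its relative HMGA1 fell by 0.25 (standard error 0.05, edgeR adjusted p = 0.00113), although 8 annotated pseudogenes make its counts uncertain. FOSL1, an AP-1 subunit gene, fell to 250 ± 3.49 CPM in siTRAIP, against 292 ± 9.10 CPM in siNC (-0.22, standard error 0.04, edgeR adjusted p = 5.73e-04). TCF3, which encodes the E proteins E12 and E47 that pair with TWIST factors, rose to 38.7 ± 1.30 CPM in siTRAIP, against 30.05 ± 1.20 CPM in siNC (0.36, standard error 0.05, edgeR adjusted p = 3.79e-05). ETS1 rose by 0.15 (edgeR adjusted p = 0.0415), lost in 8 of 16 alternatives.

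SNAI and ZEB proteins repress through recruited enzymes, and SNAI proteins are short-lived substrates of kinases and ubiquitin ligases, so both groups of partner genes were counted. All 20 corepressor genes were tested; 3 rose and none fell, beside 12.8% called among all tested genes, with a median log2 fold change of -0.03. The number that fell was 1 or 2 in 9 of 16 alternatives, among them 1 with DESeq2, and 2 with library sizes only, with no filter on low counts and without siTRAIP replicate 1. DNMT1, the maintenance DNA methyltransferase gene, had 681, 628 and 565 CPM in siTRAIP against 520, 532 and 512 CPM in siNC (0.26, standard error 0.05, edgeR adjusted p = 0.00248). EZH2, the Polycomb methyltransferase gene, rose by 0.16 (edgeR adjusted p = 0.0147) and the deacetylase gene HDAC1 by 0.15 (edgeR adjusted p = 0.0245), each lost in 7 of 16 alternatives. Leaving out siTRAIP replicate 1, siNC replicate 2 or siNC replicate 3 left 1 corepressor gene higher. With limma on log2(RPKM + 0.1), 0 rose and 1 fell, and the DNMT1 call was lost there as well. Of 30 tested turnover genes 4 rose and 1 fell, again beside 12.8% of all tested genes, with a median of 0.008. Here 2 rose and 4 fell with library sizes only, 1 rose and 2 fell on both RPKM scales, and 2 rose and none fell without siTRAIP replicate 1, siTRAIP replicate 2 or siNC replicate 1. Without siNC replicate 2, 1 rose and none fell, and without siNC replicate 3, 2 rose and 1 fell. FBXO45, a ubiquitin ligase subunit gene whose product acts on EMT factors, rose to 40.0 ± 2.49 CPM in siTRAIP, against 31.5 ± 0.698 CPM in siNC (0.35, standard error 0.05, edgeR adjusted p = 7.94e-05). The kinase gene AKT1 rose by 0.20 (edgeR adjusted p = 0.00364), a call lost in 3 of 16 alternatives. PAK1, another kinase gene, rose by 0.16 (edgeR adjusted p = 0.0335) and was lost in 8. FBXL5, a nuclear ligase subunit gene for SNAI1, fell by 0.20 (edgeR adjusted p = 0.0234) and was lost in 4.

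**Figure D4:**
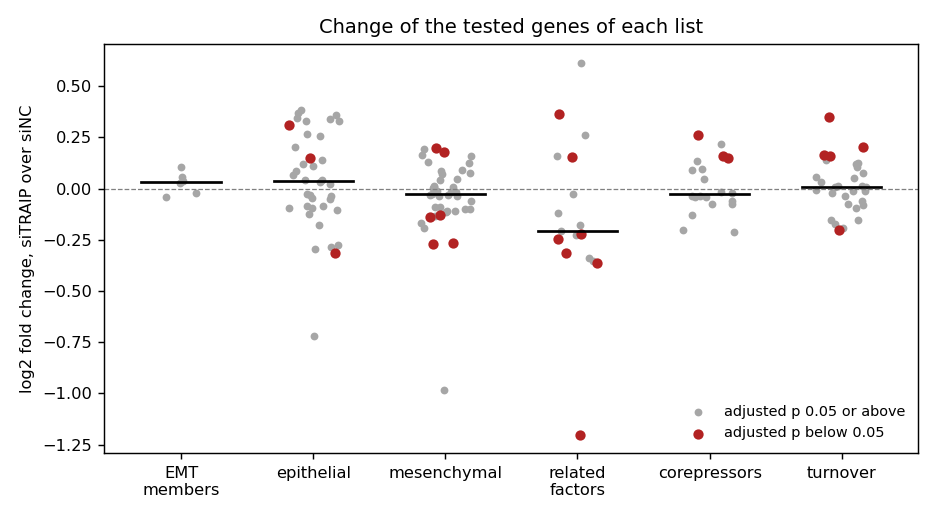
Log2 fold change of siTRAIP over siNC for the tested genes among the 10 EMT members and in 5 lists; red points passed an edgeR adjusted p of 0.05, grey points did not, black bars are medians and the dashed line is the median of all tested genes. The 6 tested members lie between -0.04 and 0.10 with no red point, and HMGA2 at -1.20 is the lowest point.

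Without siTRAIP replicate 3, the library that stood apart, the epithelial list had 1 gene higher and 2 lower, and the turnover list 2 lower. Opposite-strand genes share 14.8% of the exonic bases of PAK1, 6.89% of KRT7, 5.94% of AKT1, 3.62% of FSTL1, 3.05% of VCAN and 2.49% of HMGA2. Same-strand C9 shares 1.54% of those of DAB2. The counts of these genes are therefore uncertain. At the members' own loci, the opposite-strand ZEB1-AS1 and ZEB2-AS1 share 4.23% and 5.27% of the exonic bases of ZEB1 and ZEB2. ZEB1-AS1 was thin, at 0.945 ± 0.106 CPM in siTRAIP and 0.936 ± 0.295 CPM in siNC (SD, n = 3 each). None of the 4 tested neighbouring genes (ZEB1-AS1, SNAI3-AS1, VIM-AS1 and TANGO6) was called. No microRNA host gene listed among these neighbours was tested: MIR205HG did not pass the filter on low counts, and MIR200CHG was not found by that name. AC015933.2 shares 2.75% of the exonic bases of CDH2, RP11-354M1.2 5.62% of those of CDH1 and AC003986.6 6.94% of those of TWIST1. No overlap was found for SNAI1, SNAI2, TWIST2 or FN1, and SNAI1 and ZEB2 each have 1 annotated pseudogene that could share reads. Among the called genes besides HMGA1, the same holds for TCF3, FOSL1 and EZH2 with 1 each and for HDAC1 with 2.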

How the data were processed

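Per the labels' protocols, T24 RNA was extracted with TRIzol and made into stranded mRNA libraries. The authors deposited RPKM values and whole-number counts for each gene. Subread 1.5.1, featureCounts, Trimmomatic 0.36 and the GRCh38 build come from the submitters' processing notes; the role of each tool, the annotation release and the strand setting are not stated there. The deposited RPKM equals count over summed exon length and total gene count within a relative 1.3e-06. Of counts from 1 to 10, 70.2% were even, against 50.8% above 1000, so read pairs may be counted as 2.

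Counts were tested with edgeR 4.0.16 (R 4.3.3): filterByExpr, TMM factors, robust quasi-likelihood test (2-sided), siTRAIP over siNC, Benjamini-Hochberg adjustment over 18685 genes, threshold 0.05. The common biological coefficient of variation was 5.73%. Standard errors are the absolute log2 fold change over the root of the F statistic. CPM uses TMM-scaled library sizes. The fit was tested on simulated data. Alternatives used DESeq2 1.42.0, limma 3.58.1 on log2 RPKM, other factors and filters, halved counts, a replicate block and each library left out. Sequences came from RefSeq and GENCODE v29.

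Members and lists were chosen with earlier results of these data known. Named genes are the members, TRAIP, up to 4 called genes of each list with the smallest adjusted p and up to 2 called against its majority; genes named otherwise are marked. EPCAM, ESRP1 and OVOL2, the markers and the genes found in 1 library were named after their values were seen. The values of 1 further gene of the mesenchymal list that the rule names are not reported here.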

Additional observations from a re-analysis of the deposited data

How the results depend on the processing

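The counts of members called higher and lower were 0 in all 16 alternatives, with adjusted p from 0.0640 (SNAI2 without siTRAIP replicate 3) to 0.974. Of 96 member values, 86 kept their sign. The 10 that turned were ZEB1 (-0.00305), ZEB2 (-0.0340) and CDH2 (-0.0252) with library sizes only, the same 3 with limma on log2(RPKM + 0.1) (-0.00294, -0.0333 and -0.0254) and on log2(RPKM + 1) (-0.00281, -0.0267 and -0.0244), and ZEB2 without siNC replicate 3 (-0.0132, the low end of its range with 1 library left out, which reached 0.0413). Library sizes and RPKM leave out the TMM factors, by construction. There, 838 genes were higher and 2050 lower with library sizes only, 461 were higher and 1059 lower with limma on log2(RPKM + 0.1), and 450 higher and 1069 lower on log2(RPKM + 1), against 1396 higher and 997 lower in the main test. With 1 library left out, genes higher ran from 878 to 1471 and genes lower from 602 to 1151, lowest without siNC replicate 1.

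The TRAIP log2 fold change lay between -1.21 and -0.99. Equal replicate numbers did not pair the libraries (correlations of deviations 0.03, -0.11 and -0.01), and with the number as a replicate block 0 members were called, 1279 genes were higher and 866 lower, and TRAIP stood at -1.11. The planned plain ratio of CDH2 to CDH1 had no value, since CDH1 was 0 in 4 libraries. Its log2 difference, siTRAIP minus siNC, was -0.07 with 0.1 RPKM added to both genes, -0.03 with 1 added, and -0.11 to -0.01 with a library left out. The size of these differences depends on the added value, since CDH1 reached at most 0.0161 RPKM. Alternatives for list genes and the transcript-length levels were chosen after seeing the data: of 25 called list and marker genes, 9 kept the call in all 16. Depth limits SNAI1, TWIST1, TWIST2 and CDH1.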
